A study of Rattus norvegicus with 8 samples.

Results

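Heat shock proteins and their DnaJ cochaperones were examined in injured rat dorsal root ganglia (DRG), the clusters of sensory nerve cell bodies beside the spinal cord. Members were taken by name: every gene with a single symbol in the platform annotation that belongs to the Hspa, Hspb, Hspd, Hspe, Hsph, Hsp90, Dnaja, Dnajb or Dnajc families, each represented by its brightest probe set on average across the arrays. The rule gave 62 genes of 14497 with 1 symbol. They comprised 10 Hspa, 7 Hspb, 3 Hsp90, 1 Hspd, 1 Hspe and 1 Hsph gene with 4 Dnaja, 12 Dnajb and 23 Dnajc genes. Hspa1a, Hspa1b and Hspa1l, the strongly heat-inducible Hsp70 genes and their close relative, had no probe set with a single symbol and were not among the 62.

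The study asked whether histone deacetylase inhibitors (HDACIs) alter neuropathic pain and gene expression after nerve injury. Adult male Wistar rats underwent L5 spinal nerve transection, and the injured, ipsilateral L5 DRG was collected on day 14. The HDACI group (4 arrays) received MS-275, an inhibitor of class I histone deacetylases, at 30 nmol per day through an intrathecal osmotic pump, and the vehicle group (4 arrays) received the same solvent, dimethyl sulfoxide in saline, without the drug. The paper found no clear change of histone acetylation in L5 DRG, by Western blot or at the promoters tested. It states that the drug seemed not to arrive in these ganglia in detectable amounts. Every rat was injured and carried a pump, so the drug was the only labelled difference, and no uninjured ganglion was among the 8 arrays, which leaves induction by injury itself outside these data. Values are log2 expression values, in which a difference of 1 equals a doubling, and differences are given as HDACI minus vehicle with the standard error (SE) or the 95% confidence interval (CI).

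Hsp70 proteins (Hspa) hold unfolded stretches of protein and release them through cycles of ATP hydrolysis, which J-domain proteins (Dnaja, Dnajb, Dnajc) start and Hsp110 (Hsph1) resets. Hsp90 acts later, on kinases, hormone receptors and other clients, whereas the small heat shock proteins (Hspb) bind unfolding proteins without ATP. Heat shock factor 1 (HSF1) drives many of these genes through the heat shock element, and the unfolded protein response drives those of the endoplasmic reticulum. In sensory neurons, Hspb1 (Hsp27) is known as a protein that axotomy induces and that favours neuronal survival, while Hspb2, Hspb3, Hspb6, Hspb7 and Hspb8 are made in large amounts by striated muscle.

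The 250 bases before the start site were read from a table of RefSeq promoters (GRCr8) for 50 of the 62 genes. Hsp90aa1, Hspa12a, Hspb2, Dnaja2, Dnajb4, Dnajc2, Dnajc5b, Dnajc8, Dnajc11, Dnajc12, Dnajc15 and Dnajc22 were not matched in it and were not searched. The endoplasmic reticulum stress element was searched on both strands as CCAAT and CCACG with 9 free bases between them. It was found upstream of 3 members, Hspa5, Hsp90b1 and Dnajc3, or 6.0% of those searched, against 0.0657% of all 33469 upstream sequences. Here and below, a member counted if any of its upstream sequences matched, whereas the background counts single sequences, so the shares differ in unit. These are shown because the same 3 genes shared an expression pattern across arrays, described below. Capitals mark the element, and all sequences run 5′ to 3′ on the strand of the gene. They lie at chr3:38452766-38453015 (plus strand), chr7:23012317-23012499 (minus strand) and chr15:102432504-102432582 (plus strand), in this order.
Hspa5: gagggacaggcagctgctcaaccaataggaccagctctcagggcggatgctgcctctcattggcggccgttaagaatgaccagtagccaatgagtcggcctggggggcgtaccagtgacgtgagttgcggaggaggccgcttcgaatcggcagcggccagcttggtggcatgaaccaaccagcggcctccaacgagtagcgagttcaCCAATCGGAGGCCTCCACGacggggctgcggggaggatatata
Hsp90b1: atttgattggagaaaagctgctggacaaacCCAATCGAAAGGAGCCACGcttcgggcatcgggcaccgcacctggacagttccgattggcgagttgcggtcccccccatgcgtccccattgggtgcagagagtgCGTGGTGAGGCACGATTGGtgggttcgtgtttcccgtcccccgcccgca
Dnajc3: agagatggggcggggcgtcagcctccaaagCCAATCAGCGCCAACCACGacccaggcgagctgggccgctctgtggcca

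The heat shock element was searched on both strands as GAA, TTC and GAA with 2 free bases between neighbours. It was found upstream of 4 members, Hspa8, Hspd1, Hspe1 and Hsph1, or 8.0%, against 0.663% of all upstream sequences. Its inner part, GAANNTTC, which the longer form contains, was found in 13 members (26.0%), among them Hspb1, against 7.23% of all. The stretches below show the element of Hsph1, Hspa8 and Hspe1 in capitals, and for Hspb1 its inner part, at chr12:10427302-10427367 (plus strand), chr8:50080271-50080501 (plus strand), chr9:64084232-64084309 (plus strand) and chr12:26432373-26432460 (minus strand). The Hspe1 stretch lies between that gene and Hspd1, which is read from the opposite strand, and holds overlapping matches that both genes share.
Hsph1: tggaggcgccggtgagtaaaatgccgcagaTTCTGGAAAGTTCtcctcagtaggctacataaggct
Hspa8: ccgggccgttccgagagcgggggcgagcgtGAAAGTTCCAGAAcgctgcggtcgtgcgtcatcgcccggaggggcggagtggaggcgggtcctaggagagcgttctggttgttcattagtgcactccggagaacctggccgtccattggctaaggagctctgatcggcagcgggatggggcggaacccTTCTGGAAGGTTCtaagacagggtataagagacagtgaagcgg
Hspe1: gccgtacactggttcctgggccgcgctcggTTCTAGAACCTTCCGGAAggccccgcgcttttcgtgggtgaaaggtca
Hspb1: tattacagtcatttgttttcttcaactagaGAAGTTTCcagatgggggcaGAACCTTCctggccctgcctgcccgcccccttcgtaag
A motif for the muscle factor MEF2 (CTA and TAG with 4 free bases between them, both strands) was found upstream of 3 members, Hspb3, Hspb7 and Dnajb3, against 3.41% of all upstream sequences. AP-1 (TGACTCA) and CRE (TGACGTCA) motifs, searched on both strands, were each found in 3 members (6.0%), against 4.05% and 1.59% of all upstream sequences. A match is a run of letters and does not show that a factor was bound.

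The tissue matched its label. Of 17 sensory neuron markers, 15 were measured, with mean values between the 35.3 and the 99.7 percentile of all probe sets, and the injury marker Atf3 lay at the 98.9 percentile. Skeletal muscle transcripts differed between arrays. The muscle score, the mean deviation of 35 muscle markers from their averages, was -0.64, -0.57, -0.58 and -0.89 in HDACI replicates 1 to 4 and 1.80, 1.22, -0.74 and 0.39 in vehicle replicates 1 to 4. Vehicle replicates 1, 2 and 4 therefore stood above the other 5 arrays, with a gap of 0.962 between the sets. All 35 markers had lower means in the HDACI group (median difference -1.42). The score thus largely follows the groups. A fit with the score as a covariate therefore cannot fully separate muscle from drug and gives less precise differences. Acta1, the skeletal muscle actin, reached 13.24 in vehicle replicate 1 against 9.03 in HDACI replicate 4. In vehicle replicate 4, several nociceptor genes stood apart from the other vehicle arrays: Scn10a, a sensory neuron sodium channel, read 10.06 against 8.24 to 8.74, and Calca, which encodes the peptide CGRP, read 11.92 against 9.91 to 10.35. Of the 15 sensory neuron markers, 6 were highest in vehicle replicate 4 and 7 in vehicle replicate 2. In bulk tissue, fewer cells of a type and less RNA per cell cannot be told apart.

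No chaperone gene passed correction for multiple testing in the comparison of the groups. Of 28826 probe sets fitted with limma, 0 were called at the Benjamini-Hochberg adjusted threshold of 0.05 (percent called 0), the smallest adjusted p was 0.580, and each of the 62 members had an adjusted p of 1. Without adjustment, 1022 probe sets (3.55%) had a p under 0.05. Among members, 1 was higher, Hspa12b, beside 1.61% of all probe sets, and 2 were lower, Dnajb5 and Hsp90aa1, beside 1.93%. These counts are near the background.

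The precision of the chaperone genes was near that of the whole array. The median half-width of the 95% CI was 0.144 for the members and 0.157 for all probe sets. The 95% CI of the difference lay within 0.5 log2 units of 0 for 60 of the 62, the exceptions being Hspb6 and Hspb7, and 48 members differed by less than 0.1. The median SD within groups was 0.0887 for the members and 0.101 for all probe sets. The sign of the differences was uneven, with 44 of 62 members lower in the HDACI group (71.0%) against 46.7% of all probe sets, and a median difference of -0.03 against 0.01. The members were all measured on the same 8 arrays and are not independent of each other, so this share has no test of its own. Without the 5 muscle-rich small heat shock proteins, 40 of 57 were lower and the median remained -0.03.

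**Figure D1:**
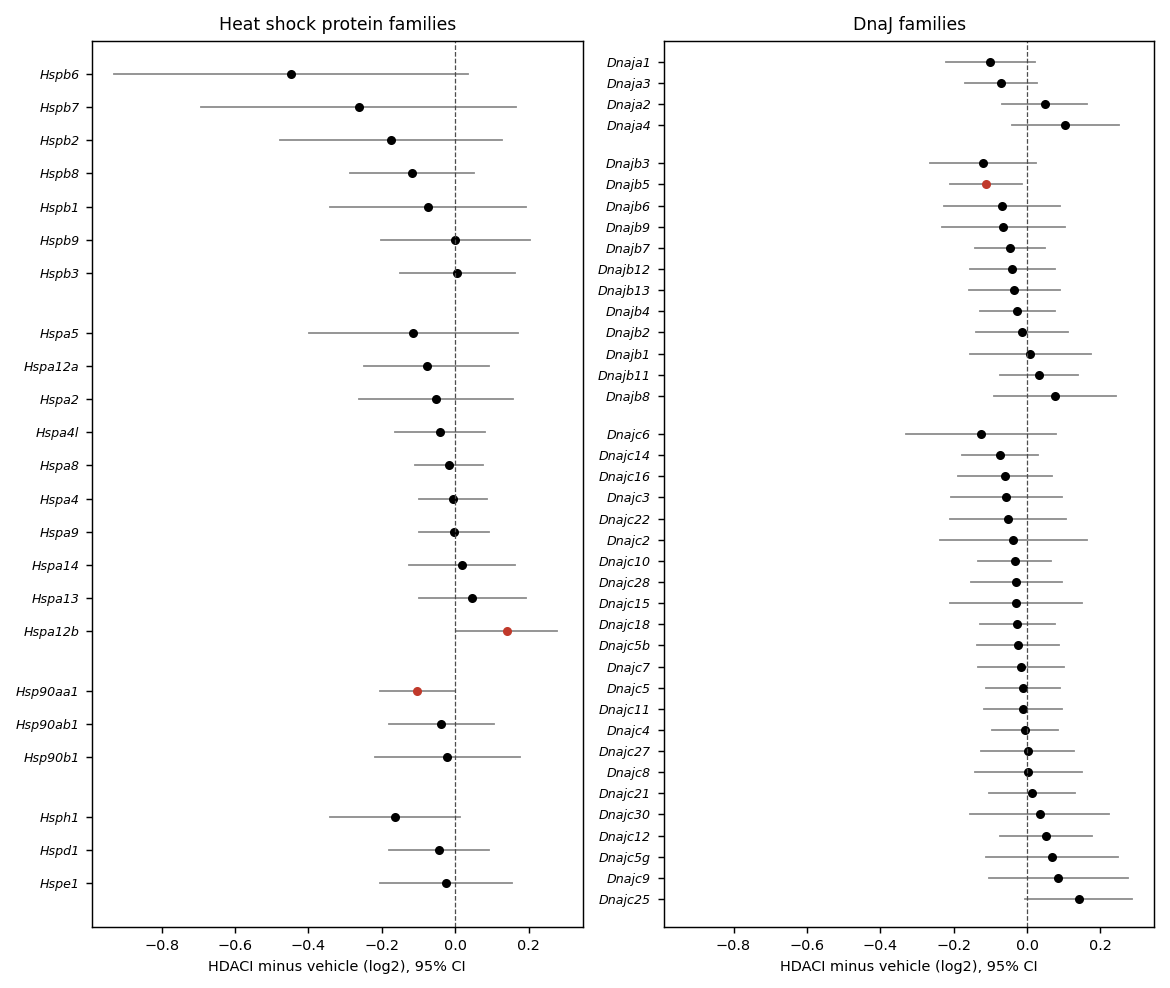
Difference between HDACI and vehicle groups (log2, HDACI minus vehicle) for each of the 62 genes, grouped by family, with the 95% CI from limma as lines. Red points mark the 3 genes with an unadjusted p under 0.05 (Hspa12b, Dnajb5 and Hsp90aa1), none of which passed adjustment. Most points sit within 0.1 of 0, and Hspb6 and Hspb7 have the widest intervals.

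Among the small heat shock proteins, Hspb6 and Hspb7 were highest in vehicle replicates 1 and 2, which also had the highest muscle scores, but not in vehicle replicate 4, where the muscle score was 0.39. Hspb6 (Hsp20), which takes part in relaxation of smooth muscle and contraction of the heart, read 9.21, 9.13, 9.03 and 9.15 in HDACI replicates 1 to 4 and 10.21, 9.74, 9.21 and 9.13 in vehicle replicates 1 to 4. Vehicle replicates 1 and 2 stood above all other arrays, while vehicle replicates 3 and 4 fell among the HDACI arrays or level with them, so the groups overlapped. The difference was -0.45 ± 0.21 (SE, 95% CI -0.93 to 0.04, unadjusted p = 0.0656 and adjusted p = 1 by limma). It was -0.23 without vehicle replicate 1, -0.04 without vehicle replicates 1 and 2, and 0.07 with the muscle score as a covariate. Vehicle replicates 1 and 2 were the highest arrays for Hspb6, so leaving them out had to raise its difference.

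Hspb7, a small heat shock protein of heart and skeletal muscle, read 6.97, 6.86, 7.12 and 7.02 under HDACI and 7.38, 7.82, 6.90 and 6.92 under vehicle. The same 2 vehicle arrays were highest, but in the opposite order, since Hspb6 peaked in vehicle replicate 1 and Hspb7 in vehicle replicate 2. Its difference was -0.26 ± 0.19 (SE), and it was -0.07 without vehicle replicate 2, 0.08 without vehicle replicates 1 and 2 and 0.11 with the muscle covariate. Leaving out vehicle replicates 1 and 2 had to raise the difference of Hspb7 too. The part of muscle tissue in the group differences of both genes was not tested. No correlation with the muscle score is given, because the arrays fall into separate sets of 5 and 3.

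For the other muscle-rich members, vehicle replicate 1, the array with the most muscle RNA, was not among the highest. Vehicle replicate 2, the next in muscle score, was the highest array for Hspb8. Hspb2, the partner of Hspb3 in a muscle chaperone complex, read 9.06, 8.88, 8.83 and 8.37 under HDACI and 8.86, 9.02, 8.89 and 9.07 under vehicle. The HDACI values spread widely around a low replicate 4, and the difference of -0.18 ± 0.13 (SE) was -0.04 without that array. Hspb8 (Hsp22), which works with Bag3 in chaperone-assisted autophagy, read 10.81, 10.58, 10.70 and 10.54 against 10.68, 10.91, 10.74 and 10.78. The groups overlapped and the difference was -0.12 ± 0.07 (SE), with a range of -0.17 to -0.08 over all alternatives run.
Hspb3 lay between 6.50 and 6.79 on every array (difference 0.01 ± 0.07), and its sign turned in 7 of 16 alternatives. Over the 5 muscle-rich genes, 4 were lower, and the median difference was -0.18, which became -0.01 with the muscle covariate and -0.04 without vehicle replicates 1 and 2. Hspb6 and Hspb7 were highest in those vehicle arrays, so the last value does not test the part of muscle. Hspb9, a testis-associated member outside this list, read 7.29, 7.47, 7.48 and 7.31 against 7.21, 7.47, 7.28 and 7.58, with a difference of 0.00 ± 0.09 (SE).

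**Figure D2:**
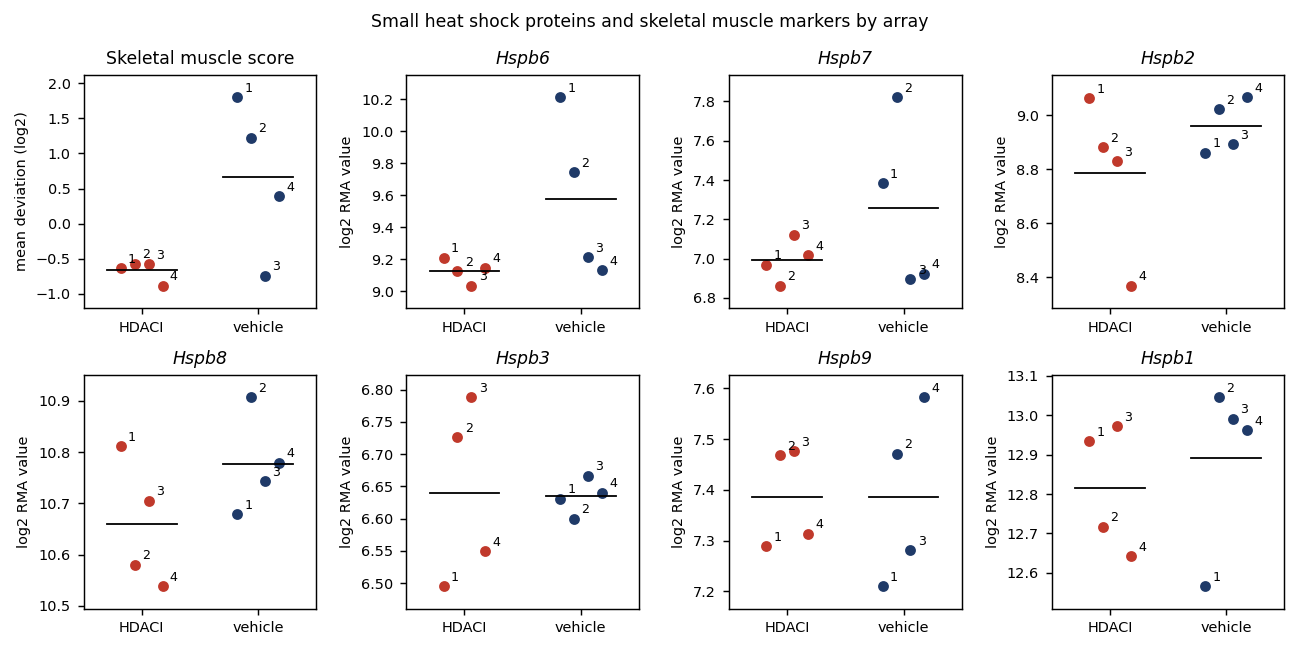
Each panel shows 1 quantity on the 8 arrays, with replicate numbers beside the points and group means as lines: the skeletal muscle score (mean log2 deviation of 35 markers) and the log2 RMA values of the 7 Hspb genes, each on its own axis. Vehicle replicates 1 and 2 are highest for the muscle score, Hspb6 and Hspb7, but not as a pair for the other Hspb genes. Vehicle replicate 2 alone is highest for Hspb8 and Hspb1.

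Hspb1, the injury-associated member, did not differ between groups beyond its spread. It read 12.93, 12.72, 12.97 and 12.64 in HDACI replicates 1 to 4 and 12.57, 13.05, 12.99 and 12.96 in vehicle replicates 1 to 4. Both groups contained high and low arrays, and the lowest value of all was in vehicle replicate 1. The difference was -0.07 ± 0.12 (SE, 95% CI -0.34 to 0.19, limma unadjusted p = 0.541), a size that the variation of Hspb1 within groups (SD 0.193) exceeds. It was -0.02 without HDACI replicate 4 and also without vehicle replicate 2, -0.18 without vehicle replicate 1 and -0.22 with the muscle covariate, and was below 0 throughout.

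Hspb1 and the median of a list of other injury genes were high and low on the same arrays. The median deviation of 9 nerve injury genes (among them Atf3, the transcription factor that marks axotomised neurons, and the neuropeptide gene Gal) was 0.00, -0.08, 0.03 and -0.11 under HDACI and -0.11, 0.11, 0.16 and 0.03 under vehicle. The 3 arrays with the lowest Hspb1 (HDACI 2, HDACI 4 and vehicle 1) also had the lowest values of this list, and the 2 arrays with the highest Hspb1 (vehicle 2 and vehicle 3) had the highest. The median deviation of 15 sensory neuron markers was also lowest in HDACI replicate 4 (-0.13) and vehicle replicate 1 (-0.11) and highest in vehicle replicate 2 (0.09), but in HDACI replicate 2, where Hspb1 was low, it was -0.02, the highest of the HDACI arrays. These lists were set beside Hspb1 after its values had been seen, and the injury list was the closest of several lists looked at. Hspb1 itself leaves a gap of 0.218 between its 3 low and 5 high arrays, with too few arrays on either side for a correlation, and the part of neuron content or of injury state in its values was not tested.

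**Figure D3:**
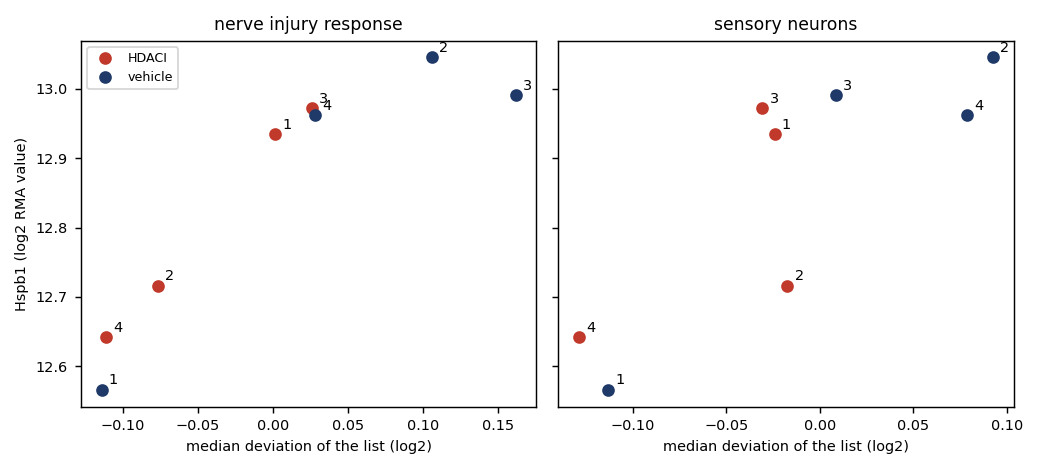
Log2 value of Hspb1 on the 8 arrays against the median deviation (log2) of 9 nerve injury genes (left) and 15 sensory neuron markers (right), with red points for HDACI, blue points for vehicle and replicate numbers beside them. HDACI 2, HDACI 4 and vehicle 1 lie lowest for Hspb1 and for the injury genes, and vehicle 2 and vehicle 3 lie highest for both.

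The cytosolic Hsp70 system showed little difference. Hspa8 (Hsc70), the constitutive Hsp70 of the cytosol that also strips clathrin from vesicles, read 13.89, 13.85, 13.89 and 13.87 under HDACI and 13.85, 13.88, 13.89 and 13.94 under vehicle. All 8 values lay close together, and the difference was -0.02 ± 0.04 (SE). The gene had 5 probe sets, whose differences ran from -0.04 to 0.07, and RefSeq names 33 pseudogene copies of Hspa8, with which probes may share sequence.
The testis-associated Hspa2 (-0.05), the Hsp110 relatives Hspa4 (-0.01) and Hspa4l (-0.04) and the ribosome-associated Hspa14 (0.02) differed by no more than 0.05 in either direction.

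Hsph1 (Hsp110), the nucleotide exchange factor of Hsp70, differed most outside the Hspb family. It read 10.11, 9.88, 10.01 and 9.96 under HDACI and 10.01, 10.18, 10.09 and 10.33 under vehicle. Vehicle replicate 4 was the highest array, and the remaining vehicle values ran between 10.01 and 10.18, overlapping the HDACI range. The difference was -0.17 ± 0.08 (SE, 95% CI -0.34 to 0.01, limma unadjusted p = 0.0644), and it was -0.10 without vehicle replicate 4.

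Hsp90aa1, the stress-inducible cytosolic Hsp90, was among the few members whose groups did not overlap. It read 12.68, 12.58, 12.57 and 12.67 under HDACI and 12.75, 12.71, 12.75 and 12.71 under vehicle, so that all 4 vehicle arrays lay above all 4 HDACI arrays. The separation was small, at -0.10 ± 0.05 (SE, limma unadjusted p = 0.0493, adjusted p = 1), which is a fold of 0.931. The difference ranged from -0.12 to -0.08 over the 17 alternatives, and the unadjusted p was not under 0.05 in 10 of them, among them those without HDACI replicate 2 or 3 and without any 1 vehicle array (limma p up to 0.134). Groups without overlap were found for 2 of 62 members, Hsp90aa1 and Dnajb5, beside 2.1% of all probe sets. Both were lower under HDACI (beside 1.09% of all), and 0 were higher (beside 1.01%).
Hsp90ab1, the constitutive partner, read 13.18, 13.15, 13.23 and 13.08 against 13.04, 13.24, 13.22 and 13.28 and overlapped fully (-0.04 ± 0.06, SE). RefSeq names 16 pseudogene copies of Hsp90aa1 and 23 of Hsp90ab1, so that cross-hybridisation cannot be told apart from the genes' own signal.

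Of the divergent Hsp70 genes, Hspa12b, which is known from endothelial cells, was the only member with a higher HDACI mean at an unadjusted p under 0.05. It read 8.24, 8.14, 8.17 and 8.24 under HDACI and 7.91, 8.12, 8.06 and 8.14 under vehicle. The groups overlapped narrowly near 8.14, and vehicle replicate 1 was the lowest array. The difference was 0.14 ± 0.06 (SE, 95% CI 0.00 to 0.28, limma unadjusted p = 0.0462, adjusted p = 1), and it was 0.09 without vehicle replicate 1 and 0.08 with the muscle covariate. In 12 of 17 alternatives the limma unadjusted p was over 0.05 (up to 0.394), among them both other scalings and those without HDACI replicate 1, 3 or 4 or vehicle replicate 1 or 3. Of 9 measured endothelial and pericyte markers, 8 had higher HDACI means, beside 15374 of 28826 probe sets. The median difference of the markers was 0.15, and 1 was higher at a limma unadjusted p under 0.05, beside 1.61% of all probe sets. The median deviation of the markers was 0.15, 0.01, -0.06 and 0.11 under HDACI and -0.02, -0.15, 0.03 and -0.06 under vehicle. It was lowest in vehicle replicate 2, whereas Hspa12b was lowest in vehicle replicate 1. The part of vascular cell content in Hspa12b was not tested.
Hspa12a, its neuronal relative, differed by -0.08 ± 0.07 (SE).

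On a list of HSF1 target genes, in which Hspa8 and Hsp90ab1 are mainly constitutive and the rest are better known as heat-inducible, 10 of 11 measured genes had lower HDACI means, with a median difference of -0.04. The list was Hspa4, Hspa8, Hspb1, Hsph1, Hspd1, Hspe1, Hsp90aa1, Hsp90ab1, Dnaja1, Dnajb1 and Dnajb4, and its differences ran from -0.17 for Hsph1 to 0.01 for Dnajb1. Dnajb1 (Hsp40), the main inducible J-domain partner of Hsp70, read 10.18, 10.03, 10.16 and 10.07 under HDACI and 9.94, 10.23, 10.05 and 10.19 under vehicle, with no order by group. Dnaja1, a J-domain protein of the cytosol, read 12.28, 12.17, 12.19 and 12.28 against 12.26, 12.34, 12.29 and 12.43 (-0.10 ± 0.05, SE, limma unadjusted p = 0.0963). Vehicle replicate 4 was the highest array for 5 of the 11 genes, against 17.3% of all probe sets, and the median without that array was -0.05. Hsf1 itself differed by -0.03 ± 0.06 (SE).

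Of the 8 measured chaperones of the endoplasmic reticulum, 3 were highest in vehicle replicate 4. The same array was highest for 25.8% of all members and 17.3% of all probe sets. As a list the 8 genes did not stand apart there. Their median deviation was 0.02 in vehicle replicate 4, 0.02 in vehicle replicate 1 and 0.03 in HDACI replicate 4. Hspa5 (BiP), the Hsp70 of this compartment and a standard readout of the unfolded protein response, read 13.00, 12.78, 12.87 and 12.95 under HDACI and 12.79, 12.99, 12.87 and 13.41 under vehicle. Hsp90b1 (Grp94) read 12.57, 12.42, 12.39 and 12.50 against 12.45, 12.38, 12.39 and 12.75, and Dnajc3 (P58IPK), an inhibitor of the kinase PERK, read 9.83, 9.76, 9.72 and 9.84 against 9.82, 9.79, 9.73 and 10.02. All 3 were highest in vehicle replicate 4, and the other 3 vehicle arrays lay within or close to the HDACI range.

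The 3 genes were grouped because that array was their highest, so leaving it out had to raise their differences. Those differences were -0.11 ± 0.13 for Hspa5, -0.02 ± 0.09 for Hsp90b1 and -0.06 ± 0.07 (SE) for Dnajc3, each smaller than its SE. Without vehicle replicate 4 they were 0.02, 0.06 and 0.00. The 3 genes are those with the stress element printed above. Element and pattern did not fully match among the other genes of the compartment. The element was also found upstream of Calr, Canx, Creld2 and Xbp1, of which Canx was not highest in vehicle replicate 4. No match was listed for Pdia4 or Hyou1, which were highest there. However, only 42 of the 52 other proteostasis genes had an upstream sequence to search. The other measured members of the compartment were not highest in vehicle replicate 4. These were Dnajb9 (ERdj4, -0.06), Dnajb11 (ERdj3, 0.03), Dnajc10 (ERdj5, -0.03), Hspa13 (0.05) and Dnajc25 (0.14), and Dnajc25 was lowest on that array.
Of 16 further genes of the compartment, which are its members on the list of other proteostasis genes, 8 were highest in vehicle replicate 4, against 17.3% of all probe sets, and 5 were highest in HDACI replicate 4, against 15.0%. The excess in vehicle replicate 4 over the mean of the other vehicle arrays ran from -0.13 for P4hb and -0.04 for Sil1 upward. Pdia4, a disulfide isomerase, exceeded that mean by 0.35, Creld2 by 0.32, Hyou1 (Grp170) by 0.28, Xbp1, a transcription factor of the unfolded protein response, by 0.27, and Manf by 0.26. The pattern was noticed after the values had been seen. The same array had the high Scn10a and Calca values given above. The median deviation of the 15 sensory neuron markers was 0.08 in vehicle replicate 4 and 0.09 in vehicle replicate 2. In vehicle replicate 2, Hspa5, Hsp90b1 and Dnajc3 read 12.99, 12.38 and 9.79. The part of neuronal content in the chaperone values was not tested.

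**Figure D4:**
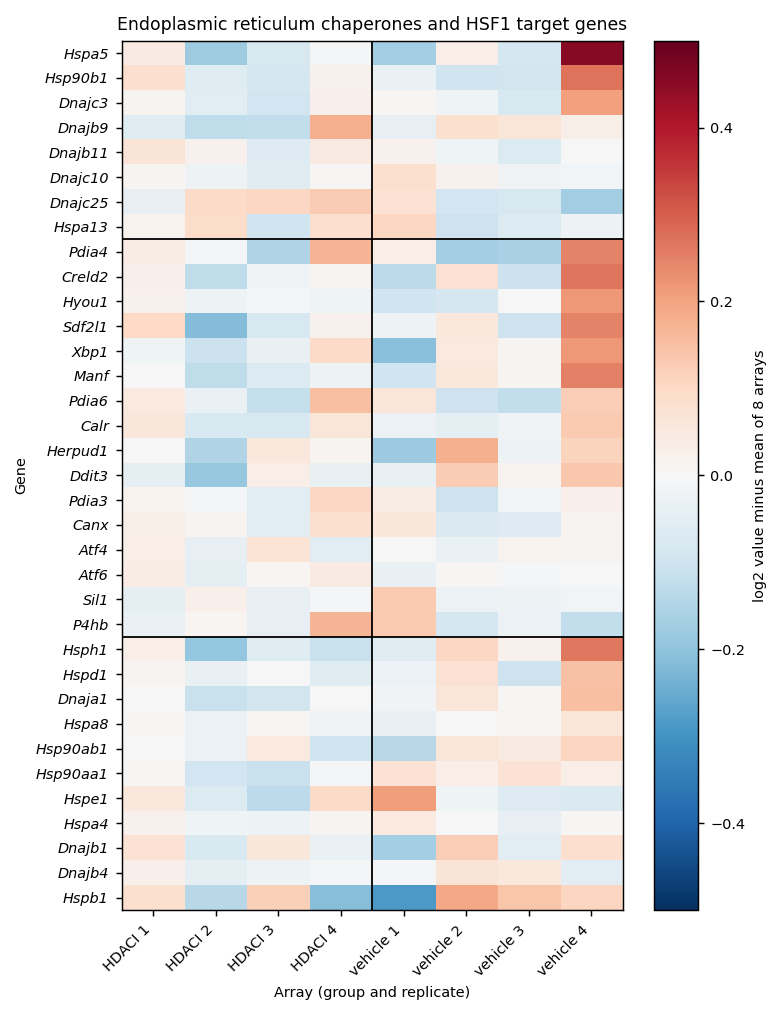
Log2 value minus the mean of 8 arrays (colour) for 8 chaperones of the endoplasmic reticulum (top), 16 further genes of that compartment ordered by their excess in vehicle replicate 4 (middle) and 11 HSF1 target genes (bottom), with 1 column per array. The column of vehicle replicate 4 is dark red for Hspa5 and red for Hsp90b1, Dnajc3 and the upper genes of the middle block, and pale or blue for Dnajb11, Dnajc25 and P4hb.

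The mitochondrial chaperones differed little between groups. Hspd1 (Hsp60) read 10.95, 10.90, 10.94 and 10.88 under HDACI and 10.91, 11.01, 10.83 and 11.09 under vehicle, and its cochaperonin Hspe1 (Hsp10) read 10.20, 10.08, 10.01 and 10.24 against 10.35, 10.12, 10.08 and 10.07. Although the genes flank the shared stretch printed above, their highest arrays differed, being vehicle replicate 4 for Hspd1 and vehicle replicate 1 for Hspe1. The differences were -0.04 ± 0.06 and -0.03 ± 0.08 (SE). Hspa9 (mortalin), the Hsp70 of the matrix, differed by -0.00 ± 0.04, and its partner Dnaja3 (Tid1) by -0.07 ± 0.04. Of the 7 measured genes 6 were lower, with a median of -0.03.

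The 39 J-domain genes had 26 lower and 13 higher means, with a median of -0.03, and 1 had an unadjusted p under 0.05, beside 3.55% of all probe sets. This was Dnajb5, a J-domain protein known to bind the class II histone deacetylase HDAC4. It read 9.58, 9.50, 9.55 and 9.48 under HDACI and 9.60, 9.67, 9.63 and 9.65 under vehicle, with all vehicle arrays above all HDACI arrays. The difference was -0.11 ± 0.04 (SE, 95% CI -0.21 to -0.01, limma unadjusted p = 0.0294, adjusted p = 1), a fold of 0.925. The size ranged from -0.13 to -0.10 over the 17 alternatives, but the unadjusted p was over 0.05 in 8 of them. Among these were the fits without HDACI replicate 2 or 4, without vehicle replicate 2, 3 or 4, and with the muscle covariate (p up to 0.123 in the limma fits). With the covariate the difference was still -0.11, so there the p rose with almost no change in size.
The next lower differences by unadjusted p were those of Dnajb3 (-0.12 ± 0.06), Dnaja1, Dnaja3, Dnajc14 (-0.07 ± 0.05) and Dnajc6 (-0.13 ± 0.09). The higher ones were led by Dnajc25 (0.14 ± 0.06, limma unadjusted p = 0.0565) and Dnaja4 (0.10 ± 0.06), followed by Dnajb8, Dnajc9, Dnaja2 and Dnajc12 at 0.05 to 0.08.

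The 4 cochaperones with neuronal roles all had lower HDACI means. Dnajc5 (cysteine string protein), which guards the assembly of synaptic vesicle fusion proteins, read 11.03, 11.02, 10.97 and 10.98 against 11.06, 11.04, 11.01 and 10.94, a difference of -0.01 ± 0.04 (SE). Dnajc6 (auxilin), which recruits Hsc70 to clathrin-coated vesicles, read 10.65, 10.60, 10.72 and 10.42 against 10.53, 10.86, 10.81 and 10.69 and was lowest in HDACI replicate 4. Dnajb2, a neuronal J-domain protein linked to inherited motor neuropathy, differed by -0.01 ± 0.06. The median of the list was -0.05, and sensory neuron markers were lower in mean for 13 of 15 genes, with a median of -0.10.

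Of 56 other proteostasis genes 52 were measured, 35 lower and 17 higher, with a median difference of -0.02, and 2 had an unadjusted p under 0.05, beside 3.55% of all probe sets. Tcp1, a subunit of the cytosolic chaperonin that folds actin and tubulin, read 11.05, 11.10, 11.12 and 11.12 under HDACI and 11.21, 11.31, 11.31 and 11.32 under vehicle. The groups did not overlap, and the difference was -0.19 ± 0.04 (SE, 95% CI -0.29 to -0.09, limma unadjusted p = 0.00192, adjusted p = 1). Another subunit of the complex, Cct8, was also lower on every HDACI array (-0.08 ± 0.04, unadjusted p = 0.0719 by limma), whereas the other 6 measured subunits ranged from -0.04 for Cct2 to 0.01 for Cct5.
Unc45b, the myosin chaperone of striated muscle, read 7.38, 7.41, 7.42 and 7.34 against 7.68, 7.64, 7.35 and 7.68, low in the muscle-poor vehicle replicate 3, and its difference of -0.20 ± 0.08 (SE) was -0.03 with the muscle covariate, with the limma unadjusted p over 0.05 in 9 of 17 alternatives. For Tcp1 it was under 0.05 in all 17. However, the mean of all probe sets was taken for members only, so that alternative left Tcp1 and Unc45b as reported. Tcp1 was also named because its p was among the smallest of the list. The next by unadjusted p were Ddit3 (-0.12 ± 0.06) among lower genes and Unc45a (0.04), Bag5 (0.07), Fkbp5 (0.09) and P4hb (0.05) among higher genes. Stip1 differed by -0.09 ± 0.06 (SE) with a 95% CI from -0.22 to 0.04, and the differences of Bag3 (-0.05 ± 0.10) and Cryab (-0.09 ± 0.14) were smaller than their SE.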

How the data were processed

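RNA of 8 injured L5 DRG, 4 biological replicates per group, was hybridised by the authors to Affymetrix Rat Gene 1.0 ST arrays. The deposited values are log2 expression values per probe set, made by the authors with robust multi-array averaging (RMA) in the package oligo. Its version is not given in the sources used here. The method subtracts background, forces 1 distribution on all arrays and summarises probes, so a shift common to most genes is removed. Symbols came from the platform annotation: 15209 probe sets had 1 symbol, 306 several and 13311 none.

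Groups were compared with limma 3.58.1 (R 4.3.3) on all 28826 probe sets in a two-sided test without covariates, and p-values were adjusted over the whole table by the Benjamini-Hochberg method. The script was tested on simulated data. Array medians lay between 8.13 and 8.16. With arrays, precision is limited by their number. Every pair of arrays differed in nearly all values.

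The members and gene lists were chosen with earlier results of these data known. Named are all Hsp genes, the 6 Dnaj genes of smallest p in each direction, genes on role lists, and of other proteostasis genes the 4 of smallest p in each direction with Hsf1, Bag3, Cryab and Stip1; 8 further genes of the endoplasmic reticulum, Cct2 and Cct5 were named after their values were seen. A gene with several probe sets was represented by the brightest over all arrays. The muscle score is the mean over 35 markers of each array's deviation from the marker's mean.

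Alternatives were the replicate number as a block, each array left out in turn, removal of probe sets with means under the 30th percentile, median centring, cyclic loess, an intensity trend with robust variances, array weights, the muscle score as a covariate, removal of the 2 vehicle arrays highest in muscle markers, and the mean of all probe sets of a gene. The labels do not say whether replicate numbers pair the arrays, and the main fit treated them as unpaired. Deviations of arrays with the same number correlated at -0.04, 0.01, 0.01 and -0.28, which cannot settle the question. Upstream sequences and pseudogene names came from RefSeq (GRCr8).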

Additional observations from a re-analysis of the deposited data

Results flagged for a closer look

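In 4 of 124 groups of 4 arrays, 1 array stood far from the other 3 by Dixon's criterion, where chance alone gives about 6.2. Dnajb6, a J-domain protein that suppresses protein aggregation, read 10.38 in HDACI replicate 1 against 10.54 to 10.56 in the other HDACI arrays. RefSeq names 10 pseudogene copies of Dnajb6. Dnajc22 read 7.999 in vehicle replicate 3 against 8.15 to 8.16 in the other vehicle arrays. Hspa12a, the divergent Hsp70 of neurons, read 11.60 in HDACI replicate 4 against 11.82 to 11.86, and this array was also the lowest of all for the sensory neuron markers (median deviation -0.13). Hspa14 read 9.04 in vehicle replicate 1 against 8.79 to 8.83, and this array carried the most muscle RNA. The part of neuron or muscle content in these values was not tested.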

How the results depend on the processing

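No member and no probe set passed an adjusted p of 0.05 under any of the 17 alternatives, and the smallest adjusted p of a member was 0.701. Members higher at an unadjusted p under 0.05 (1 as reported) numbered 0 with the replicate block, median centring, cyclic loess and the intensity trend, and 0 to 1 with an array left out. Members lower (2 as reported) numbered 1 with the block, with median centring and without the 2 vehicle arrays highest in muscle markers, 0 with the muscle covariate, 5 with array weights and 0 to 4 with an array left out. With the block, Hspa12b, Dnajb5 and Hsp90aa1 each had an unadjusted p over 0.05, and 803 probe sets passed in place of 1022. Probe sets at that threshold (1022) numbered 2045 with array weights and 708 to 1758 with an array left out, the last without vehicle replicate 1.

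The median of the 5 muscle-rich genes (-0.18) was -0.0062 with the covariate, -0.0428 without the 2 vehicle arrays, and -0.255 to -0.0752 with an array left out, the smallest sizes without HDACI replicate 4 or vehicle replicate 2. The median of the endoplasmic reticulum chaperones, added after seeing the data, ran from -0.0498 to 0.0284, being positive only without vehicle replicate 4. That of the mitochondrial chaperones, also added, ran from -0.05 to 0.01 and so changed sign. The median of all members stayed between -0.04 and -0.02.

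None of the member differences was called, so signs are loosely fixed: they turned for 20 of 62 members with the covariate, 16 without the 2 vehicle arrays and 0 to 11 under the other alternatives. The block, the removal of dim probe sets and the intensity trend left the differences unchanged and so could not turn a sign. Among members, the mean of all probe sets altered only Hspa8 and Hspd1. Counts over the 17 alternatives include these settings. Over all alternatives, 29 members kept their sign, 22 lower and 7 higher, among them Hspb1, Hspb2, Hspb8, Hsph1, Hsp90aa1, Dnajb5 and Hspa12b. Signs turned for Hspb6, Hspb7, Hspa5, Hsp90b1 and Dnajc3. The cause was not tested. With 4 arrays per group, small differences can be missed, and the intervals given show the range of differences compatible with these values. Signal over background was not available for these values.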
